A study of Mus musculus with 20 samples.

Results

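The inflammasome and pyroptosis genes were followed in monocyte-derived macrophages (MoMac) of the fibrotic mouse liver. The members were a list of 10 genes: the inflammatory caspases Casp1 and Casp4, the sensors Nlrp3, Nlrc4, Naip5, Aim2 and Mefv, the adaptor Pycard, and the caspase substrates Gsdmd and Il18. Values were read for 9 of the 10 genes, matched by gene symbol among 59311 gene rows, and Naip5 was not analysed here. All 9 were among the 17248 genes tested, those with a mean of at least 10 normalized counts in at least 1 of the 4 groups. The list was put together because Casp4 and Il18 were lower under Ac-6-FP in Ly6C hi cells, so values of that comparison are given as a description, with no test.

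An inflammasome is a protein platform that forms in the cytosol when a sensor meets a sign of infection or damage. Through the adaptor ASC, the product of Pycard, or directly, it activates caspase-1, which cleaves the precursors of interleukin-1β and interleukin-18 and also gasdermin D. Cleaved gasdermin D forms pores in the plasma membrane, which release the cytokines and can end in pyroptosis. Mouse Casp4 encodes the caspase also called caspase-11, which binds cytosolic lipopolysaccharide and cleaves gasdermin D without an upstream platform. In the liver, monocytes and macrophages are main sites of this machinery.

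Ly6C hi and Ly6C low macrophages were sorted from the same livers, and their RNA sequenced, in 10 male C57BL/6 mice (C57BL/6 J in the Methods) aged 10 to 12 weeks. All mice had received CCl4, a hepatotoxin, at 0.6 ml/kg for 4 weeks, so no uninjured liver was compared. Mice 11 to 15 received vehicle (DMSO in PBS) and mice 16 to 20 received Ac-6-FP at 0.25 mg/kg, a ligand of MR1 that blocks the activation of mucosal-associated invariant T (MAIT) cells. Cells were taken on day 2 after the last CCl4 injection, in a gate of CD11b+ and F4/80+ cells without CD3, CD11c and Ly6G. This gave 4 groups of 5 libraries, Ly6C hi with vehicle or Ac-6-FP and Ly6C low with vehicle or Ac-6-FP.

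Each library held between 5693049 and 18682437 reads on genes. The Ly6C low library of vehicle mouse 13 stood apart, with 5343 genes above 0 against 9017 to 15766 in the other 19, and with 2765 of 6652 well expressed genes at 0. Results resting on it are given with and without it. The median number of genes above 0 was 9749 in Ly6C hi vehicle and 13622 in Ly6C hi Ac-6-FP libraries, and 10379 and 14084 in the Ly6C low groups. The sorting genes followed the labels for Ly6c2, which ranged from 4930.2 to 10012 normalized counts in Ly6C hi and from 284 to 1014 in Ly6C low libraries. They did not for the CD11c gene Itgax, at 0 in all 10 Ly6C hi libraries, between 0 and 1952 in the Ly6C low vehicle libraries, with 1 at 0, and between 1038 and 3302 in the Ly6C low Ac-6-FP libraries, whose gate left out CD11c+ cells. The summed level of 7 T and NK cell markers was at most 812 in Ly6C hi but 39540.4 to 86329.8 in Ly6C low libraries, carried by Gzma and Nkg7 (lowest values of 17527 and 15923 in Ly6C low), with Cd3e at 0 in 18 of 20 libraries. The summed level of 8 neutrophil markers was 8755 to 15094 in Ly6C hi, 10463 to 62848 in Ly6C low vehicle and 21837 to 132814 in Ly6C low Ac-6-FP libraries, carried in Ly6C low by Retnlg (at least 9064, against at most 504 in Ly6C hi). Of these 8 markers, Camp, Ltf and Ngp had medians of 22.7, 0 and 111 in Ly6C low with vehicle and of 2543, 2376 and 2676 with Ac-6-FP. Their ranges overlapped, since vehicle libraries reached 3851, 996 and 2033 and each gene was at 0 in 1 Ac-6-FP library. Retnlg had medians of 35768 and 43239, and Cxcr2 alone had a lower median with Ac-6-FP (356 and 168). The Ly6C low values below therefore come from libraries that also held NK cell and neutrophil marker transcripts, whose part in the results was not tested. In sorted bulk samples, fewer cells of a type and less RNA per cell cannot be told apart.

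Casp4, Casp1 and Il18 lay wholly lower in the Ac-6-FP libraries of Ly6C hi MoMac, and all are on chromosome 9. In the coordinates of the deposited table (mm10), Casp1 spans chr9:5298517-5307289 and Casp4 spans chr9:5308849-5336791, which leaves 1559 bases between them. Il18 spans chr9:50554700-50581841. The 250 bases before their start sites are shown as a description only, since Casp4 and Il18 were chosen on this comparison. No link between these sequences and the counts was tested. The sequences are from RefSeq (GRCm38.p6, plus strand), at the start sites that the deposited table gives, and capitals mark a match to an NF-kB motif.
Casp4, chr9:5308599-5308848: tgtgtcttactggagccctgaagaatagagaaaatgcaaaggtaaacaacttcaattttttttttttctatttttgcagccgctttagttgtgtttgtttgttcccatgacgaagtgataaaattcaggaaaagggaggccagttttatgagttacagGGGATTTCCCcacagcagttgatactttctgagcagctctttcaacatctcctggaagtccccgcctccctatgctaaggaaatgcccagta
Casp1, chr9:5298267-5298516: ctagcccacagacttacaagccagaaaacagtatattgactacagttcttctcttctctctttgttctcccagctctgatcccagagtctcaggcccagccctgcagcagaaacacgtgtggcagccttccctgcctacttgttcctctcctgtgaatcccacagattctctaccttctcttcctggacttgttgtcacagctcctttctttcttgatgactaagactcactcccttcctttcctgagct
Il18, chr9:50554450-50554699: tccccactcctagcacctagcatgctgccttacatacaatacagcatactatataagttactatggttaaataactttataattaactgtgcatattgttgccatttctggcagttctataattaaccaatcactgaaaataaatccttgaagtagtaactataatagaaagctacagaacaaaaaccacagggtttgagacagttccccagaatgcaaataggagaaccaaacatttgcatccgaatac
Both strands were searched for an NF-kB motif (GGGA, then any 4 bases, then CC), an interferon response motif (GAAA, then any 2 bases, then GAAA) and a PU.1 motif (GAGGAAG), which 17.6%, 2.98% and 10.6% of all 32851 promoter windows of this length held. The Casp4 window held GGGATTTCCC, whose first base lies at -92 from the start and which matched the NF-kB motif on both strands at the same position. The Casp1 and Il18 windows held none of these letters. Of the other members, the window of Nlrp3 at the table's start held an NF-kB match, and those of Aim2 and Pycard each held a PU.1 match.

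Casp4, the sensor of cytosolic lipopolysaccharide, had normalized counts of 849, 780.3, 1115, 908 and 1113 in the Ly6C hi libraries of vehicle mice 11 to 15. With Ac-6-FP it had 488, 437, 514, 524 and 466 in mice 16 to 20. The groups did not overlap, and the mean went from 953 ± 154 (SD, n = 5) to 486 ± 35.3 (SD, n = 5), a difference of -0.96 in mean log2(normalized count + 1).

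Il18, the precursor of a cytokine that drives interferon-γ production by T and NK cells, was at 685, 1140.0, 949, 1425 and 1165 in the Ly6C hi vehicle libraries. It was at 455, 524, 559.8, 593 and 551 with Ac-6-FP. Every Ac-6-FP library lay below every vehicle library, with means of 1073 ± 275 and 536 ± 51.9 (SD, n = 5 each) and a log2 difference of -0.96.

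Casp1, the protease of the canonical inflammasomes, was at 4194, 3934, 6776, 4479.8 and 3940.3 in the Ly6C hi vehicle libraries. With Ac-6-FP it was at 3179, 3368, 3049, 3203 and 3034. These groups did not overlap either, with means of 4665 ± 1201 and 3167 ± 136 (SD, n = 5 each) and a log2 difference of -0.53, or -0.38 without mouse 13, the highest vehicle library.

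In all, 3 of 9 members lay wholly lower in the Ac-6-FP libraries of Ly6C hi MoMac, beside 0.377% of the 17248 genes tested. Since the list was chosen on this comparison, nothing is read from that count.

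The other members overlapped between treatments in Ly6C hi MoMac. Pycard, whose product ASC links sensors to caspase-1, had means of 7476 ± 1603 with vehicle and 6864 ± 437 with Ac-6-FP (SD, n = 5 each), a log2 difference of -0.10. Gsdmd, the pore-forming substrate, had means of 988 ± 391 and 1112 ± 168, a log2 difference of 0.24.

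The 4 sensors were low and uneven in Ly6C hi MoMac, and each was at 0 in 1 vehicle library and above 0 in every Ac-6-FP library. Nlrp3, the sensor of membrane and ion disturbance, ranged from 0 to 191 normalized counts with vehicle and from 5.66 to 197 with Ac-6-FP. Nlrc4, which acts with NAIP proteins on flagellin and secretion system proteins, ranged from 0 to 431 and from 149.9 to 439. Aim2, a sensor of cytosolic DNA, ranged from 0 to 389 and from 98.05 to 222.

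Mefv encodes pyrin, another inflammasome sensor. It had 442, 577, 0, 1.93 and 17.8 normalized counts in the vehicle libraries and 200.5, 498, 230.3, 366 and 431 with Ac-6-FP. Its log2 difference of 3.60 thus rests on 3 vehicle libraries near 0. These 3 libraries had 9495 to 11097 genes above 0, against 11096 to 15587 with Ac-6-FP, while mouse 12, with the fewest (9017), had the highest Mefv value. The part of the number of genes detected in the sensors' values was not tested.

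**Figure D1:**
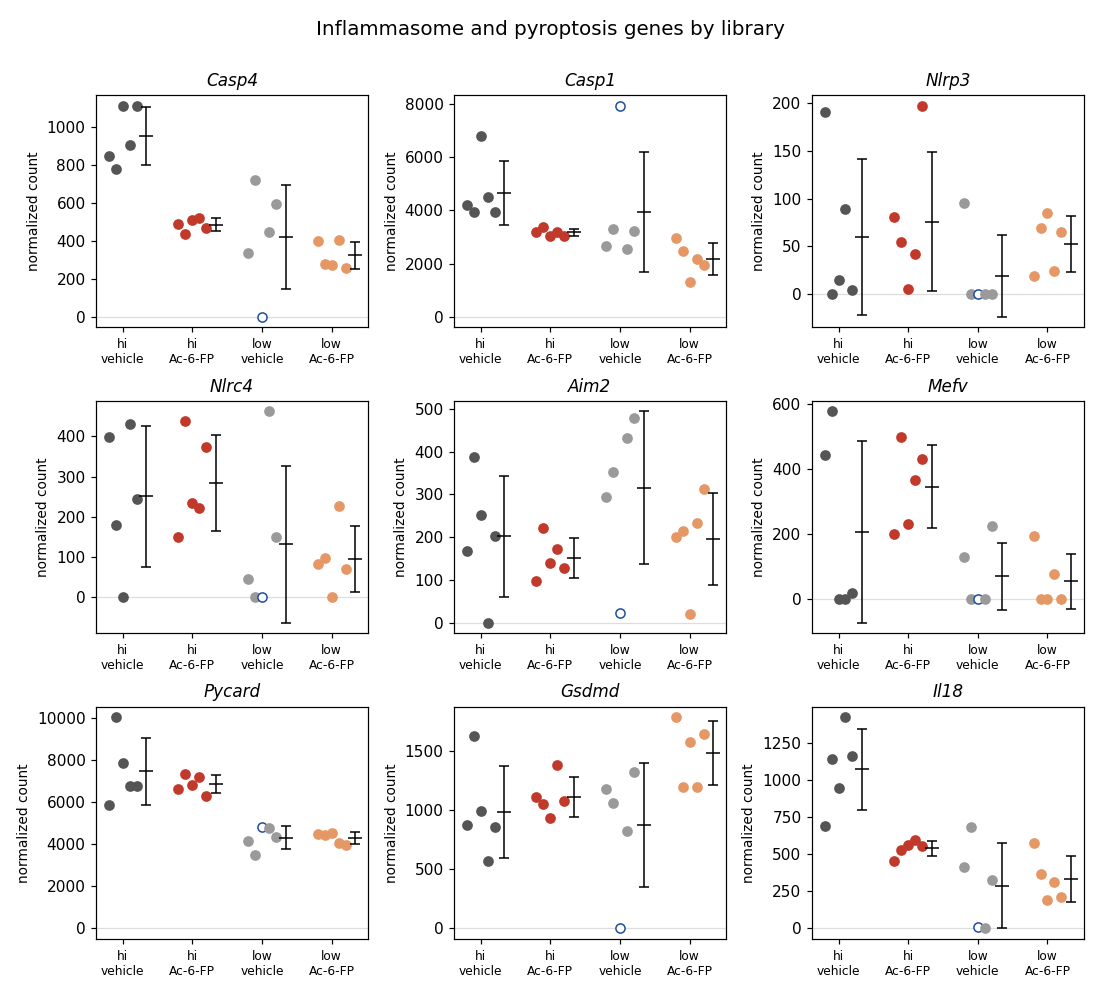
Normalized counts (linear axis) of the 9 members in the 20 libraries. Each point is a library of 1 mouse, horizontal ticks with bars give the mean and SD of 5 libraries, and the open blue circle is the Ly6C low library of vehicle mouse 13. Casp4, Casp1 and Il18 were lower in every Ly6C hi Ac-6-FP library than in any Ly6C hi vehicle library, while the sensors reached 0 in several libraries.

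Levels of other cell types' markers were compared over the same Ly6C hi libraries. The summed level of 8 neutrophil markers was 12412 to 15094 with vehicle and 8755 to 12453 with Ac-6-FP, carried in both by Mmp8 and S100a8, while Camp, Ngp and Cxcr2 were at 0 in every vehicle library. The summed level of 6 Ly6C hi monocyte markers was 100242 to 202278 with vehicle and 106737 to 130533 with Ac-6-FP. That of 5 Ly6C low markers was 3575 to 20677 and 12890.4 to 20813. Among these 5, Nr4a1 had the highest median in both groups (3986 with vehicle and 14002 with Ac-6-FP). Treml4 went the other way (1454 and 836), and Cx3cr1 had medians of 2110 and 2163. The part of these levels in the values of Casp4, Casp1 and Il18 was not tested.

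Whether the same genes changed with Ac-6-FP in Ly6C low MoMac was tested, since the members were not chosen on these libraries. No member passed the test: 0 of 9 had a limma adjusted p under 0.05, beside 0.0522% of all genes tested. An unadjusted p under 0.05 was reached by 1 member, Nlrp3, beside 9.31% of all genes, and edgeR and DESeq2 also called 0 of 9, beside 0 and 113 of all genes. The median log2 difference was 1.07 over the members and 0.91 over all genes tested, and without mouse 13 it was -0.01 and 0.35.

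Casp4 had 339, 721, 0, 449 and 595 normalized counts in the Ly6C low vehicle libraries of mice 11 to 15. It had 398, 280.4, 276, 408 and 259 with Ac-6-FP. The groups overlapped, and the direction of the difference rested on mouse 13, the library at 0. The log2 difference was 1.13 ± 1.69 (SE, limma adjusted p = 0.759) with it and -0.67 ± 0.27 (SE, limma adjusted p = 0.640) without it.

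Casp1 stood at 2659, 3308, 7929, 2536 and 3229.8 in the Ly6C low vehicle libraries, and the value of mouse 13 was the highest of all 20 libraries. With Ac-6-FP it stood at 2955, 2485, 1324, 2189 and 1947. The log2 difference was -0.76 ± 0.34 (SE, limma adjusted p = 0.534), with a two-sided exact permutation p of 0.0317 before adjustment, where 5 against 5 libraries allow a smallest p of 0.00794. Without mouse 13 it was -0.47 ± 0.23 (SE, limma adjusted p = 0.640), with an exact permutation p of 0.0635.

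Il18 was at 411, 680.2, 4.17, 0 and 321 with vehicle and at 575, 361, 186, 312 and 207 with Ac-6-FP. The Ac-6-FP libraries lay within the range of the vehicle libraries. The log2 difference of 2.48 ± 1.81 (SE, limma adjusted p = 0.613) came from the vehicle libraries of mice 13 and 14, at 4.17 and 0, and was 1.63 ± 1.81 (SE, limma adjusted p = 0.733) without mouse 13 and 1.04 ± 1.36 (SE, limma adjusted p = 0.739) without mouse 14.

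Gsdmd was at 1185, 1065, 0, 824 and 1322 with vehicle and at 1789.9, 1195, 1578, 1200.1 and 1651 with Ac-6-FP. Its log2 difference of 2.45 ± 1.87 (SE, limma adjusted p = 0.613) fell to 0.43 ± 0.19 (SE, limma adjusted p = 0.640) without mouse 13. The two-sided exact permutation p was 0.0317 with that mouse and 0.0635 without it, before adjustment. The 2 groups overlapped in both cases.

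Nlrp3 was at 95.7 in the Ly6C low vehicle library of mouse 11 and at 0 in those of mice 12 to 15. It was at 18.9, 69.5, 84.9, 24.8 and 64.9 with Ac-6-FP. The log2 difference of 4.204 ± 1.43 (SE, limma adjusted p = 0.528) depends on the pseudocount, and was 6.83 with 0.1 and 1.81 with 10. Without mouse 11 the difference passed the test (5.52, limma adjusted p = 0.0285), in a fit where 103 of all genes passed, against 9 with all mice. The vehicle libraries left in that fit were all at 0, so the size of 5.52 also depends on the pseudocount. Of the Ly6C low vehicle libraries, that of mouse 11 had the most genes above 0 (15723). With the number of genes above 0 as covariate, the Nlrp3 difference over all mice was 3.08 ± 1.49 (SE, limma adjusted p = 0.949).

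Pycard showed the most even values, with means of 4321 ± 533 with vehicle and 4302 ± 270.3 with Ac-6-FP (SD, n = 5 each) and a log2 difference of 0.00 ± 0.12 (SE). Aim2 differed by -0.58 ± 1.02, Nlrc4 by 1.07 ± 2.20 and Mefv by -0.18 ± 2.38 on the log2 scale (SE). Without mouse 13 these differences were -1.38 ± 0.76, -0.01 ± 2.16 and -0.92 ± 2.57 (SE, limma adjusted p = 0.655, 1.0 and 0.926). Mefv was at 0 in 6 of 10 Ly6C low libraries.

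**Figure D2:**
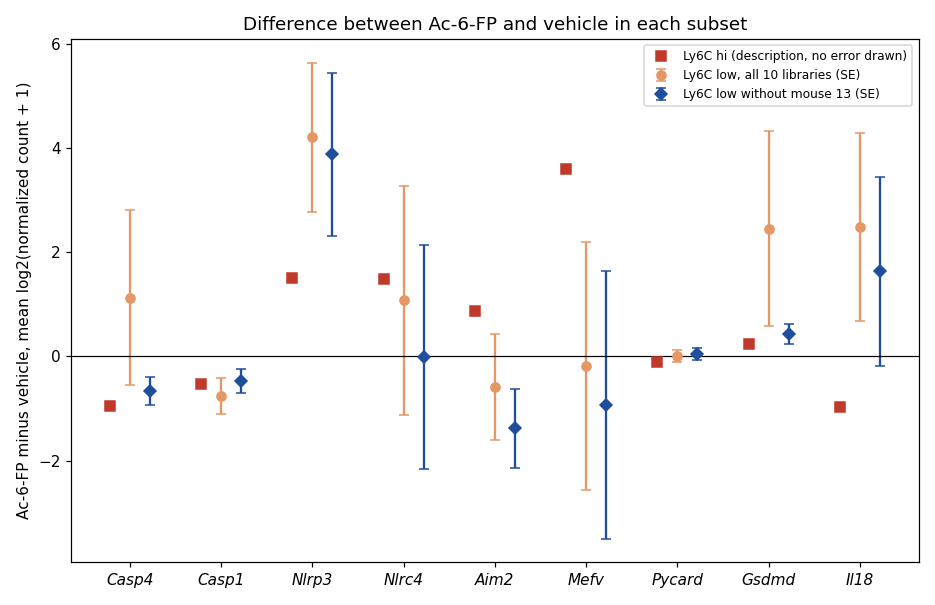
Difference between Ac-6-FP and vehicle in mean log2(normalized count + 1) for each member. Red squares are Ly6C hi, shown without error because the list was chosen there, orange circles are Ly6C low over 10 libraries, and blue diamonds are Ly6C low without mouse 13, both with the SE of limma. Casp4 lies at 1.13 with mouse 13 and at -0.67 without it, while Pycard stays near 0 in both.

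The change in Ly6C hi minus that in Ly6C low is also given as a description, because it contains the comparison behind the list. On the log2 scale it was -2.09 for Casp4 and -0.23 without mouse 13, and 0.23 for Casp1 and 0.08 without mouse 13. For Il18 it was -3.44, with -2.63 without mouse 13 and -1.89 without mouse 14. For Casp4 and Casp1 the changes in both subsets thus differed by at most 0.23 once that mouse was left out.

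The subsets themselves were compared within each mouse, as Ly6C hi minus Ly6C low. Here 1 of 9 members passed in limma, Pycard, beside 5.19% of all genes tested (1.76% higher and 3.44% lower in Ly6C hi). In edgeR it was also Pycard alone, beside 3.39% of all genes, and DESeq2 called Casp1, Mefv and Pycard, beside 12.7% of the 13904 genes to which it gave an adjusted p. Of the members, 8 of 9 had a positive difference, beside 8424 of the 17248 genes tested. The members' median was 1.41, beside -0.03 over all genes, and was the value of Nlrp3, at 0 in 4 Ly6C low vehicle libraries. Without mouse 13 the members' median was 0.73, beside -0.17 over all genes, and 7 of 9 were positive, beside 7406 of all genes. In that setting 3 of 9 passed, beside 6.74% of all genes.

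Pycard (chr7:127991373-127993867, mm10) was higher in Ly6C hi in 10 of 10 mice. It ranged from 5884 to 10049 normalized counts in Ly6C hi, with a lowest value above the highest of 4813 in Ly6C low. The within-mouse log2 difference was 0.72 ± 0.10 (SE, limma adjusted p = 0.000854), with an exact sign-flip permutation p of 0.00195, the smallest that 10 mice can give. In vehicle mice alone it was 0.78 ± 0.18 (SE, limma adjusted p = 0.364) and in Ac-6-FP mice alone 0.67 ± 0.07 (SE, limma adjusted p = 0.0134).

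The Pycard value is uncertain as to its gene. A row without a symbol (chr7:127991372-127996599) covers all of Pycard, and its values were between 0.928 and 1.03 times those of Pycard in every library. The strand used in counting is not given in the sources used here, so the reads of both rows cannot be told apart. Il18 is also overlapped by other rows, with mean normalized counts of 64.6 (Bco2), 10.9 (Tex12) and 4.64 (no symbol) against 555 for Il18. In single libraries these rows reached 245, 147 and 79.4.

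Casp1 was higher in Ly6C hi in 9 of 10 mice, mouse 13 being the exception. Its log2 difference of 0.47 ± 0.14 (SE) missed the threshold over all mice (limma adjusted p = 0.0779) and was 0.55 ± 0.12 (SE, limma adjusted p = 0.0173) without mouse 13, while DESeq2 called it over all mice (adjusted p = 0.0173).

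Casp4 was higher in Ly6C hi in 10 of 10 mice, with an exact sign-flip permutation p of 0.00195 before adjustment. The log2 difference was 1.65 ± 0.84 (SE, limma adjusted p = 0.346). The Ly6C low library of mouse 13 at 0 gave that mouse a difference of 10.1, and without it the difference was 0.71 ± 0.19 (SE, limma adjusted p = 0.0499), just under the threshold. In Ac-6-FP mice, where no library was at 0, it was 0.61 ± 0.15 (SE, limma adjusted p = 0.132).

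Il18 was higher in Ly6C hi in 9 of 10 mice, the exception being Ac-6-FP mouse 16 (455 against 575 normalized counts). The log2 difference of 2.54 ± 0.98 (SE) did not pass (limma adjusted p = 0.201), and mice 13 and 14 alone gave differences of 7.52 and 10.5. Without mouse 13 it was 1.99 ± 0.94 and without mouse 14 it was 1.66 ± 0.69 (SE, limma adjusted p = 0.276 and 0.260). Gsdmd was higher in Ly6C hi in only 3 of 10 mice. Its difference of 0.70 ± 0.90 (SE, limma adjusted p = 0.698) became -0.33 ± 0.17 (SE, limma adjusted p = 0.325) without mouse 13.

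Among the sensors, the differences were 2.44 ± 0.89 for Nlrc4 and 3.67 ± 1.33 for Mefv (SE, limma adjusted p = 0.175 and 0.168). Nlrc4 was higher in Ly6C hi in 7 of 10 mice and Mefv in 8 of 10, and DESeq2 called Mefv (adjusted p = 0.0414). Nlrp3 differed by 1.41 ± 0.88 and Aim2 by -0.72 ± 0.93 (SE, limma adjusted p = 0.455 and 0.698), and Aim2 by -1.18 ± 0.91 (SE, limma adjusted p = 0.520) without mouse 13. Without mouse 14 they differed by 0.85 ± 0.78 and 0.17 ± 0.57 (SE, limma adjusted p = 0.605 and 0.898), so that the direction of Aim2 rested on that mouse. Each of these sensors was at 0 in at least 1 library.

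**Figure D3:**
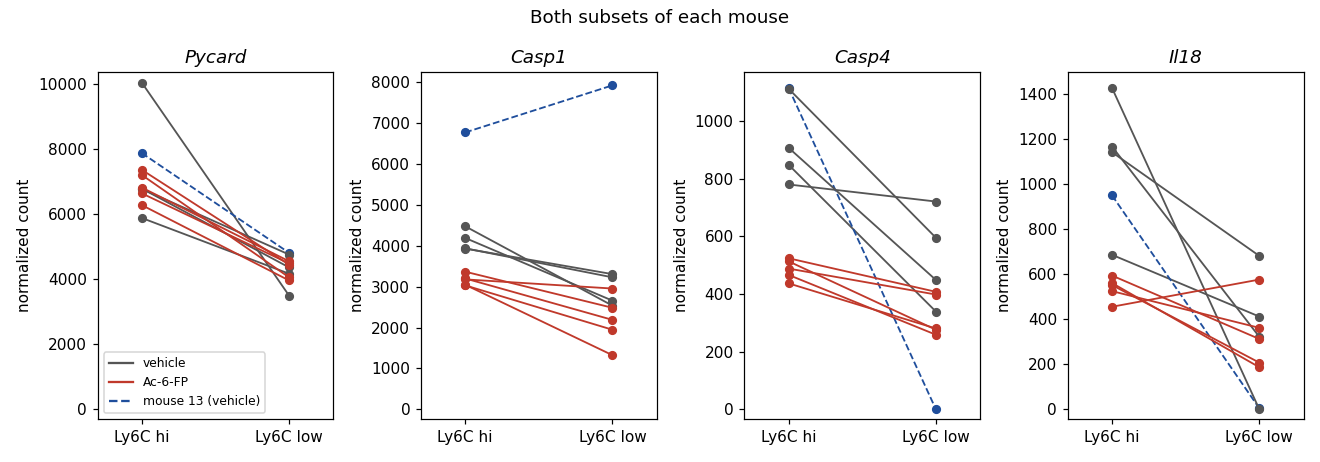
Normalized counts of 4 members in both subsets of each mouse (linear axes). Each line joins the Ly6C hi and Ly6C low library of 1 mouse, in grey for vehicle, red for Ac-6-FP and dashed blue for mouse 13. Every line falls for Pycard and Casp4, 9 of 10 fall for Casp1 and Il18, and the Ac-6-FP lines of Casp4 start below the vehicle lines.

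A wider list of 52 genes of the same machinery was read beside the members, with 48 of them tested. With Ac-6-FP in Ly6C low MoMac, 0 of 48 passed in limma, beside 0.0522% of all genes, 2 had an unadjusted p under 0.05, beside 9.31% of all genes, and edgeR and DESeq2 also called 0. Between the subsets 5 of 48 passed, beside 5.19% of all genes, 3 of them higher (1.76% of all genes) and 2 lower (3.44%) in Ly6C hi, with a median log2 difference of 0.22 beside -0.03 over all genes. Without mouse 13, 8 of 48 passed, beside 6.74% of all genes, 5 higher and 3 lower, with a median of -0.02 beside -0.17 over all genes. They were the same 5 and Gbp3, Serpinb1a and Il18rap (limma adjusted p = 0.00921, 0.00415 and 0.0326). With all mice edgeR called 2 (Ninj1 and Zbp1) and DESeq2 called 13, which include the 5 of limma, beside 3.39% and 12.7% of all genes in these tools. None of these 5 was among the 10 other sensors tested with limma.

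Of 9 other executioners, 2 were higher in Ly6C hi in limma, beside 1.76% of all genes, and edgeR called 1 of them, Ninj1. Gsdme, a gasdermin opened by caspase-3, ranged from 152 to 429 normalized counts in Ly6C hi and from 0 to 163 in Ly6C low. It was higher in 10 of 10 mice, by 4.13 ± 0.99 on the log2 scale (SE, limma adjusted p = 0.0299), with 4 Ly6C low libraries at 0. Ninj1, whose product ruptures the plasma membrane after the pores form, was also higher in 10 of 10 mice, by 1.25 ± 0.29 (SE, limma adjusted p = 0.0223).

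Of 21 upstream genes and regulators 1 passed in limma, beside 5.19% of all genes. Zbp1, a sensor of Z-form nucleic acids that acts in inflammasome and necroptosis signalling, ranged from 780.1 to 1995 in Ly6C hi and from 329 to 939.7 in Ly6C low. It was higher in 10 of 10 mice, by 1.18 ± 0.21 (SE, limma adjusted p = 0.00439).

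Of 8 cytokines, receptors and inhibitors tested, 2 passed in limma, both lower in Ly6C hi, beside 3.44% of all genes. They were Il18r1 and Il18bp, which DESeq2 also called and edgeR did not. Il18r1 was among the genes tested only through its means in the Ly6C low groups, so it could pass only as lower in Ly6C hi. Il18r1, the ligand-binding receptor chain, was at 0 in all 10 Ly6C hi libraries. In Ly6C low it was uneven, from 0 to 249 with vehicle, with 2 libraries at 0, and from 0.93 to 177 with Ac-6-FP. The log2 difference was -4.91 ± 1.00 (SE, limma adjusted p = 0.0108). Its mean of 91.9 over the Ly6C low libraries was at least 28.6-fold higher than the 3 reads that a value of 0 allows in a Ly6C hi library. Il18bp, the secreted inhibitor of interleukin-18, ranged from 0 to 52.4 in Ly6C hi and from 0 to 344 in Ly6C low, a log2 difference of -4.34 ± 0.99 (SE, limma adjusted p = 0.0216). Il18r1 is known from NK cells, whose markers given above were also higher in Ly6C low. The part of such cells in the Il18r1 values was not tested.

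The interleukin-1 genes did not pass in limma or edgeR, while DESeq2 called Il1a and Il1rn. Il1b, the other cytokine released by caspase-1, had means of 443 ± 471 with vehicle and 546 ± 132 with Ac-6-FP in Ly6C hi and of 516 ± 374 and 1102 ± 469 in Ly6C low (SD, n = 5 each). Its log2 difference between subsets was -0.65 ± 1.17 (SE, limma adjusted p = 0.787), and -1.76 ± 0.74 (SE, limma adjusted p = 0.212) without mouse 13. Il1rn, the receptor antagonist, differed by -3.19 ± 0.94 (SE, limma adjusted p = 0.0790) and ranged from 2597 to 10012 normalized counts in Ly6C low. Il1a differed by -2.91 ± 0.99 (SE, limma adjusted p = 0.136).

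Nek7, Txnip and P2rx7 act upstream of NLRP3. Nek7, its binding partner, did not exceed 49.2 normalized counts in any library. Txnip, a regulator of redox and glucose uptake, had means of 79.6 ± 29.9 and 35.0 ± 32.7 in Ly6C hi and of 86.5 ± 115 and 280.5 ± 165 in Ly6C low, with vehicle and Ac-6-FP in that order (SD, n = 5 each). P2rx7, the channel gated by extracellular ATP, ranged from 0 to 493 in Ly6C low and differed between subsets by 0.71 ± 0.84 on the log2 scale (SE, limma adjusted p = 0.668). For Nek7 and Txnip that difference was 0.50 ± 0.84 and -1.27 ± 1.16 (SE, limma adjusted p = 0.777 and 0.611). Without mouse 13 it was 0.40 ± 0.83 for P2rx7 and -2.16 ± 0.93 for Txnip (SE, limma adjusted p = 0.821 and 0.227).

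**Figure D4:**
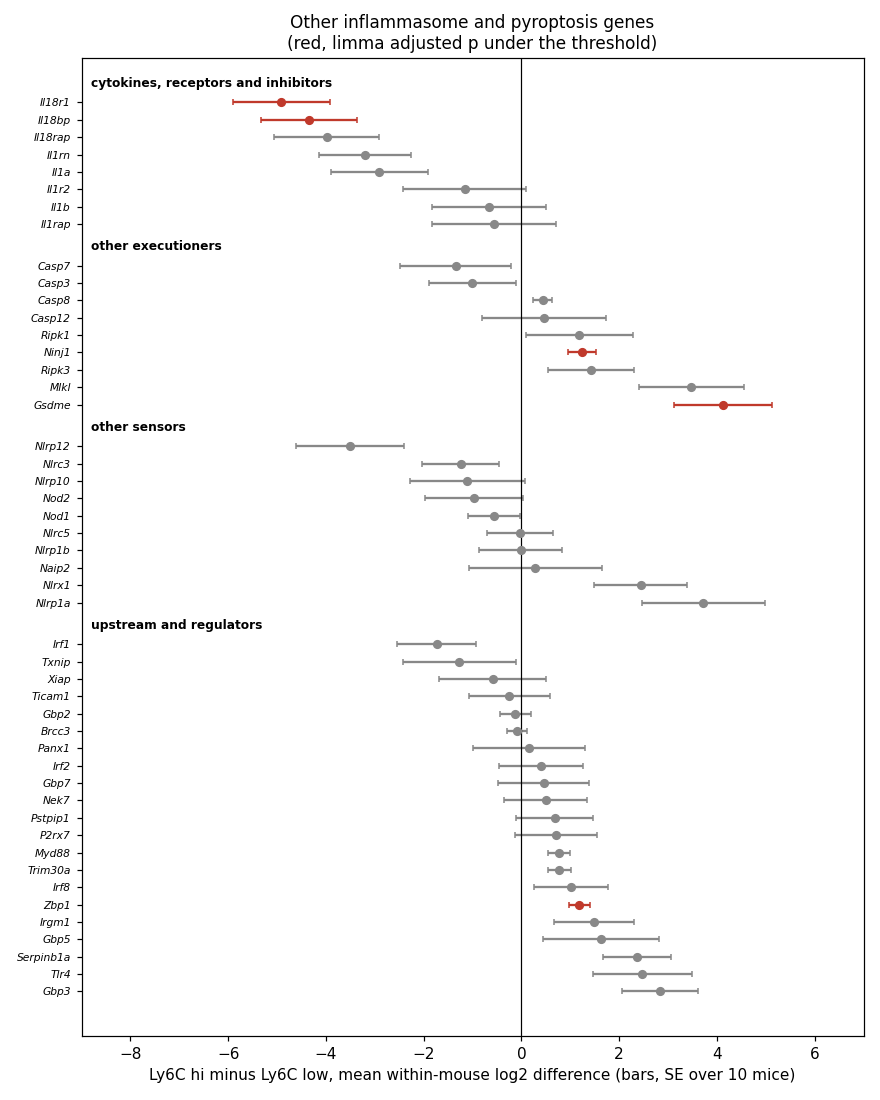
Mean within-mouse difference, Ly6C hi minus Ly6C low, in log2(normalized count + 1) for the 48 other inflammasome and pyroptosis genes tested, with the SE over 10 mice. Red points have a limma adjusted p under 0.05. Gsdme, Ninj1 and Zbp1 lie to the right (higher in Ly6C hi), and Il18r1 and Il18bp to the left.

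The genes whose pattern was most like that of Casp4 and of Il18 were sought among 5812 named genes with a mean of at least 100, by Pearson's r of log2(normalized count + 1) over the 20 libraries. For Casp4 these were Klra2 (r = 0.977), Cnpy2 (r = 0.974) and Mecr (r = 0.973), but without the Ly6C low library of mouse 13 these values were 0.756, 0.659 and 0.720, so the likeness rested largely on that library. For Il18 they were Enoph1 (r = 0.957), Rad17 (r = 0.955) and A530064D06Rik (r = 0.954), with values of 0.954, 0.950 and 0.944 without that library. Il18 was at 4.17 there and at 0 in the Ly6C low library of mouse 14, and without both libraries, an alternative chosen after seeing the data, the values were 0.577, 0.534 and 0.534, so this likeness rested largely on these 2 libraries. The 20 points share mice and fall into subsets, so these values are a description.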

How the data were processed

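RNA of 20 libraries (Ly6C hi and Ly6C low macrophages of 10 mice) was analysed. Per the Methods, the authors made libraries with a low-input kit, aligned 75-base reads with STAR 2.4.0 to mm10, and counted reads on constitutive regions of FAST DB genes. The deposited values are signal values, gene counts that the authors scaled with DESeq2 size factors, named normalized counts here. They are linear and not divided by length, so levels were not compared between genes. Dividing by the step of each library gave whole reads for 99.98% of values above 0 (tolerance 0.006). A value of 0 allows up to 3 reads, counting error only. No per-sample column was left out.

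The members and lists were chosen with earlier results of these data known. log2(normalized count + 1) was tested with limma 3.58.1 in R 4.3.3 for genes with a group mean of at least 10, with Benjamini-Hochberg adjustment over all genes and a threshold of 0.05, within Ly6C low (5 against 5 mice) and on within-mouse differences (10 mice). Libraries were paired by mouse number, since both come from 1 liver. The residuals of same-mouse libraries correlated with a median of 0.0338 (lowest 0.00334, highest 0.25). Exact permutation tests used scipy 1.17.1 under Python 3.11.15. edgeR 4.0.16 and DESeq2 1.42.0 on the recovered reads were alternatives. On simulated data 78.5% (Ly6C low) and 99.5% (within mouse) of 200 genes changed by 2 on the log2 scale were recovered among 17248 genes. The simulated counts held no added values of 0 and no library with many genes at 0, and the changed genes were drawn from those with higher means. These shares therefore do not tell how often a change would be found in members with libraries at 0.

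Besides the members, genes of the wider list were named if they passed (at most 4 per direction), together with Il1b, Il1a, Il1rn, Il18bp, Nek7, Txnip and P2rx7, and the 3 genes most like Casp4 and Il18. Promoter windows were from RefSeq, with 8 of 9 members matched. The bases after the start were left out.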

Additional observations from a re-analysis of the deposited data

Results flagged for a closer look

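In groups of 5 libraries, values were set apart where the gap to the nearest library exceeded 0.71 of the group's range on the log2 scale. Of 40 groups checked, 36 of member values and 4 of the number of genes above 0, 10 were, all of member values, and chance sets apart about 1 in 20 groups.

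The Ly6C low vehicle library of mouse 13 accounts for 4 of them. Casp4 was at 0 there (339 to 721 in the other 4), Gsdmd at 0 (824 to 1322), Aim2 at 22.96 (293 to 478) and Casp1 at 7928.65 (2536 to 3308). Mouse 13 was also set apart in Ly6C hi, with Casp1 the highest at 6776.02 (3934 to 4479.8 in the others) and Nlrc4 at 0 (179 to 431).

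Aim2 was at 0 in the Ly6C hi vehicle library of mouse 14 (167 to 389 in the others). In the Ly6C low Ac-6-FP library of mouse 18, Nlrc4 was at 0 (70.5 to 227) and Aim2 at 20.32 (202 to 313). Nlrp3 was at 95.65 in the Ly6C low vehicle library of mouse 11 and at 0 in the other 4.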

How the results depend on the processing

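With Ac-6-FP in Ly6C low, 0 members passed under each alternative, except 1 (Nlrp3) without mouse 11, so leaving out a mouse gave 0 to 1. The number of genes passing, 9, was 2 with a pseudocount of 10, with no filter, with a group mean of at least 100 or with genes detected as covariate, 0 with quantile normalization or edgeR, 113 with DESeq2, and 0 to 103 leaving out a mouse. Its direction reversed for Casp4 with genes detected as covariate (-0.83), edgeR (-0.42) and DESeq2 (-0.38), for Nlrc4 with the same (-1.13, -0.49 and -0.46) and for Pycard with quantile normalization (-0.026) and edgeR (-0.040). Leaving out a mouse, log2 differences ranged from -0.67 to 1.71 for Casp4, -0.0092 to 2.43 for Nlrc4, -1.38 to 0.11 for Aim2, -1.39 to 1.03 for Mefv and -0.073 to 0.042 for Pycard.

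Between subsets, 1 member passed, and 2 with a group mean of at least 100 (Casp1, adjusted p = 0.0401) or genes detected as covariate (Casp4, 0.00594), 3 with DESeq2 (Casp1 0.0173, Mefv 0.0414), 0 in vehicle mice alone and 1 to 3 leaving out a mouse. The genes passing, 896, were 1702 with genes detected as covariate, 584 with edgeR, 1770 with DESeq2, 79 in vehicle mice and 545 in Ac-6-FP mice, and 642 to 1162 leaving out a mouse. With no replicate block (mice unpaired) 896 genes also passed, 798 of them in both fits, and 1 member passed, Pycard, so that the pairing changed no member's call. Gsdmd reversed with DESeq2 (-0.0079) and in Ac-6-FP mice (-0.41), and ranged from -0.33 to 0.86 leaving out a mouse. Aim2 was 0.0033 in Ac-6-FP mice and -1.18 to 0.17 leaving out a mouse. The cause was not tested.

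In Ly6C hi, leaving out a mouse gave values for Casp4 between -1.03 and -0.90, Il18 between -1.11 and -0.85 and Casp1 between -0.58 and -0.38. Sensors with libraries at 0 limit what these depths show.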
